A study of Macaca mulatta with 161 samples.

Results

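The genes described here are the 100 genes whose mean level stood furthest above every other stage in the middle blastocyst, among inner cells of rhesus monkey embryos. For each of the 9781 genes with a mean FPKM of at least 1 over all 161 cells, out of 16049 genes in the table, the mean of log2(FPKM + 1) was taken in each of 4 stages. FPKM counts the fragments of a transcript per kilobase of its length, relative to all fragments of the cell. The middle mean minus the highest of the other 3 means ranked the genes, and the first 100 are the members. The members were thus chosen by these differences in mean log2(FPKM + 1), so every stage difference below is a description of the selection and carries no test.

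The cells came from embryos made with oocytes of hormone-stimulated rhesus monkeys (Macaca mulatta) and grown in HECM-9 medium with serum. The groups are early blastocysts with a small cavity (44 cells, about embryonic day 5), middle blastocysts with a partly grown cavity (39 cells, about day 5.5), late blastocysts with a full cavity (52 cells, about day 6) and hatching blastocysts (26 cells, about day 7). Outer cells were dyed with PKH26, a red membrane dye, and undyed cells were picked singly as the inner cell mass, so every group is undyed cells of cultured embryos, and the labels give no group a treatment of its own. Which embryo a cell came from is not labelled. A stage therefore counts as 1 sample and its cells not as replicates, and a stage difference cannot be told apart from a difference between the embryos sampled.

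The reads recovered from the deposited values had stage medians of 10.2 M (mega) per cell in early, 11.8 M in middle, 10.2 M in late and 10.7 M in hatching cells. The median number of genes at an FPKM of at least 1 was 7019.5 in early, 7094 in middle, 6962 in late and 6713.5 in hatching cells. The summed FPKM of 12 epiblast markers had a lowest, median and highest value of 892, 1309 and 2283 in middle cells, that of 14 primitive endoderm markers 0.68, 96.7 and 1304, and that of 17 trophectoderm (outer layer) markers 1429, 4655 and 14164. The 39 middle cells bear titles of different kinds, 25 numbered up to 29, 12 numbered from 32, and 2 with the prefix HSM, and the labels do not say what these stand for. Late cells fell into 23 epiblast-like (EPI-like) and 29 primitive endoderm-like (PE-like) cells and hatching cells into 19 and 7. The part of any of these in the stage differences was not tested.

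As background, the inner cell mass of the blastocyst gives rise to the epiblast, from which the body forms, and to the primitive endoderm, which lines the yolk sac, while the outer trophectoderm pumps fluid into the cavity and later builds the placenta. Cells of this age depend on lysosomes, the acid compartments in which proteins are broken down, on import of iron by endocytosis, and on a metabolism that moves towards glycolysis as the cavity expands. Several of the 100 members act in these processes, but no common function was used to choose them.

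The members stood between 0.90 and 2.92 log2 units above the next stage, with a median of 1.01, against a median of -0.26 for all 9781 genes, of which 31.7% had their highest mean in middle cells. Middle cells exceeded every other stage by at least 1 log2 unit for 52 members, which is every gene of the table that did so (0.532%). The early stage came second for 64 members, the late stage for 27 and the hatching stage for 9. Compared with early cells the members were higher by a median of 1.07 (all genes 0.08), compared with late cells by 1.29 (all genes 0.05), and compared with hatching cells by 1.83 (all genes 0.21). At least 1 log2 unit separated middle from early cells for 62 members (3.06% of all genes), from late cells for 84 (5.82%) and from hatching cells for 95 (18.3%), and since the rule used these contrasts nothing is read from the counts.

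The members' levels in the other stages were compared with each other, a comparison that shares its samples with the rule. Hatching means were below early means for 88 members (56.2% of all genes), and 31 were lower there by at least 1 log2 unit (16.2% of all genes), none higher by as much (11.3%). The rule limits these differences too, since a member's middle mean must clear the higher of them, so nothing is read from the counts. Late means were below early means for 69 members (48.1% of all genes), and 88 of the 100 had late and early means within 1 log2 unit of each other, a share near that of all genes (88.4%). The mean of log2(FPKM + 1) over the 100 members ran from 3.45 to 4.69 in single middle cells with a median of 4.01. It ran from 1.48 to 3.34 in early cells (median 2.88), from 1.83 to 3.60 in late cells (median 2.46) and from 1.21 to 2.42 in hatching cells (median 2.03). All 39 middle cells lay above the highest early and hatching cell and 34 above the highest late cell, a separation that the choice of members fixes.

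**Figure D1:**
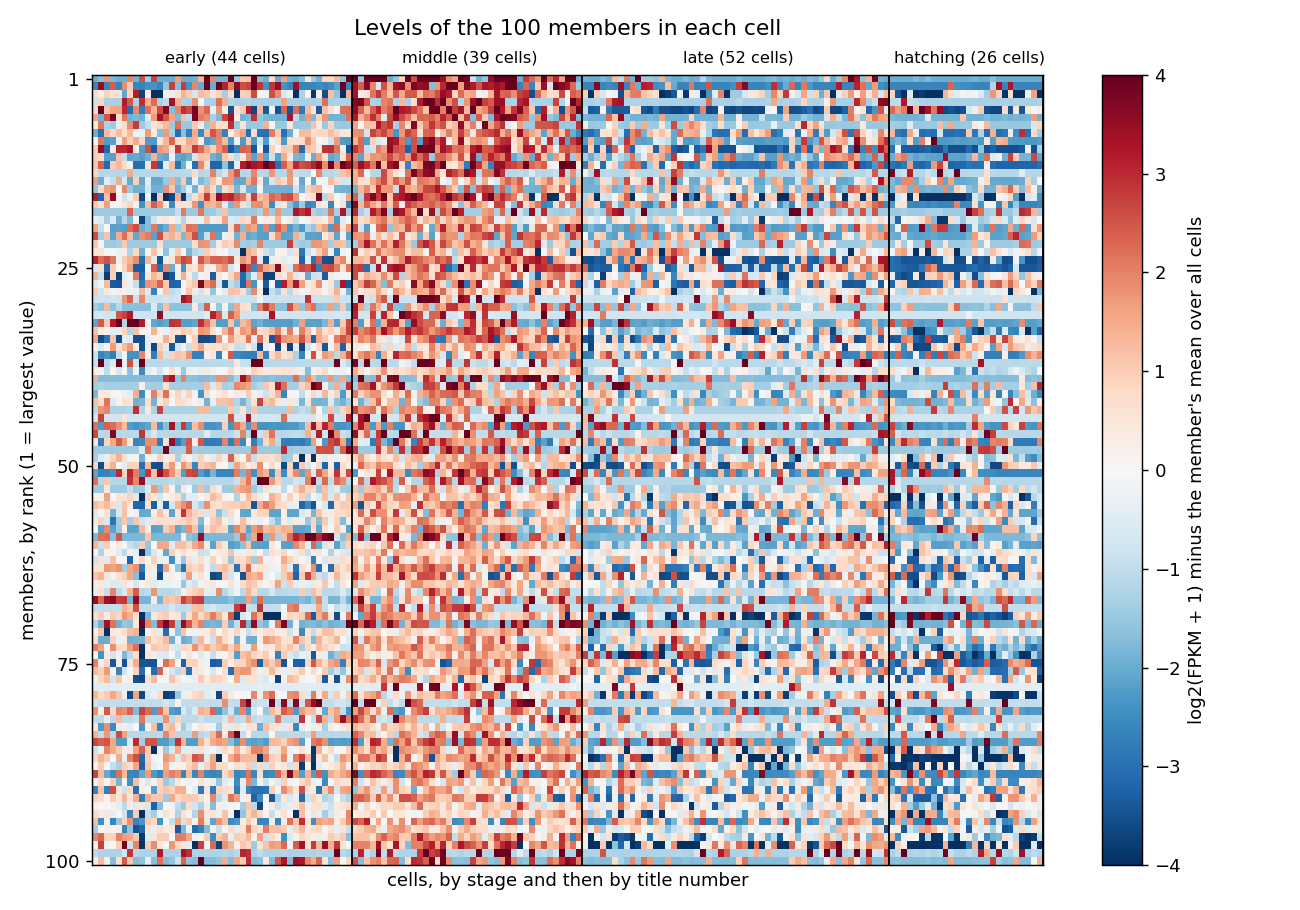
Levels of the 100 members (rows, by rank) in the 161 cells (columns, by stage and then title number), as log2(FPKM + 1) minus the member's mean over all cells, red above and blue below that mean. The block of 39 middle cells is mostly red, single cells differ within it, and the hatching cells at the right are mostly blue.

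As the plot of all cells shows, a high middle mean did not always mean a high level in every middle cell. An FPKM of at least 1 was reached in all 39 middle cells by 18 members, in at least 90% of them by 44, and in under 50% by 8. The share of cells at this level was highest in the middle stage for 91 members and tied for the highest for 5, and the median cell was highest there for all 100. Middle means ran from 1.31 to 10.03 (median 3.76) and SDs between middle cells from 0.45 to 2.78 (median 1.58). For 22 members the value that ranked them was larger than the SD between middle cells. All these counts use the levels that chose the members, so nothing is read from them. The median cell was highest in the middle stage for 29% of all genes. For the other counts no share over all genes was taken.

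The first 6 members by rank act in unrelated processes. FKBP6, an immunophilin-family protein needed for meiosis and transposon control in the male germline, had the largest value, 2.92: its lowest, median and highest FPKM were 0, 43.7 and 399.7 in middle cells, 0, 0.386 and 156 in early cells, 0, 0.113 and 120.5 in late cells and 0, 0 and 0.215 in hatching cells. It reached an FPKM of 1 in 32 of 39 middle cells, 19 of 44 early, 10 of 52 late and 0 of 26 hatching cells, so that it ran from 0 to its highest level within the middle stage and was below FPKM 1 in every hatching cell (exact 95% interval of the share 0% to 13.2%). TYROBP, a signalling adaptor of myeloid and natural killer cells, ranked next with 2.31: its lowest, median and highest FPKM were 0, 56 and 185 in middle cells, 0, 0.736 and 109 in early cells, 0, 0.126 and 81.7 in late cells and 0, 0 and 64.1 in hatching cells. It was found at FPKM 1 in 92.3% (79.1% to 98.4%) of middle cells and 47.7% (32.5% to 63.3%) of early cells, and most late and hatching cells were near 0. Such intervals, here and below, cover the counting of cells only. Cells are not replicates of a stage, so the intervals do not compare stages.

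ACOX2, a peroxisomal oxidase of branched fatty acids and bile acid side chains, had a mean log2 level of 5.92 (SD 1.29) in middle, 3.89 (SD 2.03) in early, 3.85 (SD 1.96) in late cells and 2.70 (SD 2.26) in hatching cells. Its early and late levels were close to each other, and its median FPKM was 78 in middle cells against 20.9 and 20. STBD1, which tethers glycogen to membranes, was near 0 in the median early (0.0401), late (0.0375) and hatching (0) cell and at an FPKM of 12.6 in the median middle cell, with 27 of 39 middle cells at FPKM 1. NDRG2, a member of the NDRG family linked to growth arrest, had mean log2 levels of 5.99 in middle, 4.29 in early, 1.39 in late and 3.49 in hatching cells, the largest difference between middle and late cells of any member (4.60). CDK3, a cyclin-dependent kinase, had 3.71, 2.13, 1.08 and 0.32 in the same order, and its gene overlaps TEN1 in the RefSeq table of assembly T2T-MMU8v2.0, so that reads of overlapping genes cannot be told apart here.

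Genes of acidification, the lysosome and membrane traffic made up 9 members. CTSB, a lysosomal cysteine protease, had the highest middle mean of all members, 10.03 (SD 0.74): its lowest, median and highest FPKM were 315, 1101 and 2994 in middle cells, 10.7, 642 and 1624 in early cells, 1.9, 225 and 2902 in late cells and 1.01, 92.2 and 306 in hatching cells. All cells reached FPKM 1, and the lowest middle cell lay below the median early cell, so the early and middle ranges overlapped. ATP6V1A and ATP6V1B1, catalytic-head subunits of the V-ATPase (the proton pump that acidifies endosomes and lysosomes), had values of 1.28 and 1.30. For ATP6V1A its lowest, median and highest FPKM were 7.67, 33.6 and 74.6 in middle cells, 0.174, 14.7 and 62.4 in early cells, 0.0472, 12.6 and 29.6 in late cells and 0, 8.73 and 39.5 in hatching cells.

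ATP6V1B1, a subunit isoform of specialised acid-secreting cells, was more uneven, with a lowest, median and highest FPKM of 0.394, 152 and 696 in middle cells. Its mean log2 level was 6.73 in middle, 5.43 in early, 4.09 in late and 2.04 in hatching cells. The middle cells numbered up to 29 had a mean of 7.74 and those numbered from 32 had 4.86, below the early mean. ATP6V0A1, a membrane-sector subunit, had 4.04 against 3.12 in early cells, and overlaps 7 coding genes in the RefSeq table. The other members here, named like all members outside the naming rule after their values were seen, were RILP and MON1B (partners of the endosomal GTPase Rab7), ATG7 (an enzyme of autophagy), RAB3GAP1 and WDR41, with values from 0.90 to 1.13. RILP was at FPKM 1 in 18 of 39 middle cells and in 0 of 26 hatching cells.

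The pump's other subunits were highest in middle cells about as often as all genes. Of 24 V-ATPase genes, 21 passed the FPKM filter and 9 of those had their highest mean in middle cells (42.9%, against 31.7% of all genes), with a median value of -0.05 (all genes -0.26). Without the 3 members, which the rule chose for this, it was 6 of 18 (33.3%), with a median value of -0.15. The counts of the lists below also include their members. ATP6V1C1 had mean log2 levels of 5.55 in middle and 4.99 in early cells, but ATP6V1B2, the other isoform of the B subunit, had 6.50 in middle and 6.99 in late cells, and ATP6V0D2 went from 6.74 in early to 5.49 in middle and 0.69 in hatching cells. On a wider list of 20 lysosome and V-ATPase genes, 10 of the 19 that passed were highest in middle cells (52.6%), 2 of them members, and the median value was 0.07, against 8 of 17 (47.1%) and -0.09 without the members. LAMP1, a lysosomal membrane protein, had 8.88 in middle and 8.52 in late cells, while the cathepsin gene CTSL2 had 7.43 in middle and 8.38 in early cells.

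**Figure D2:**
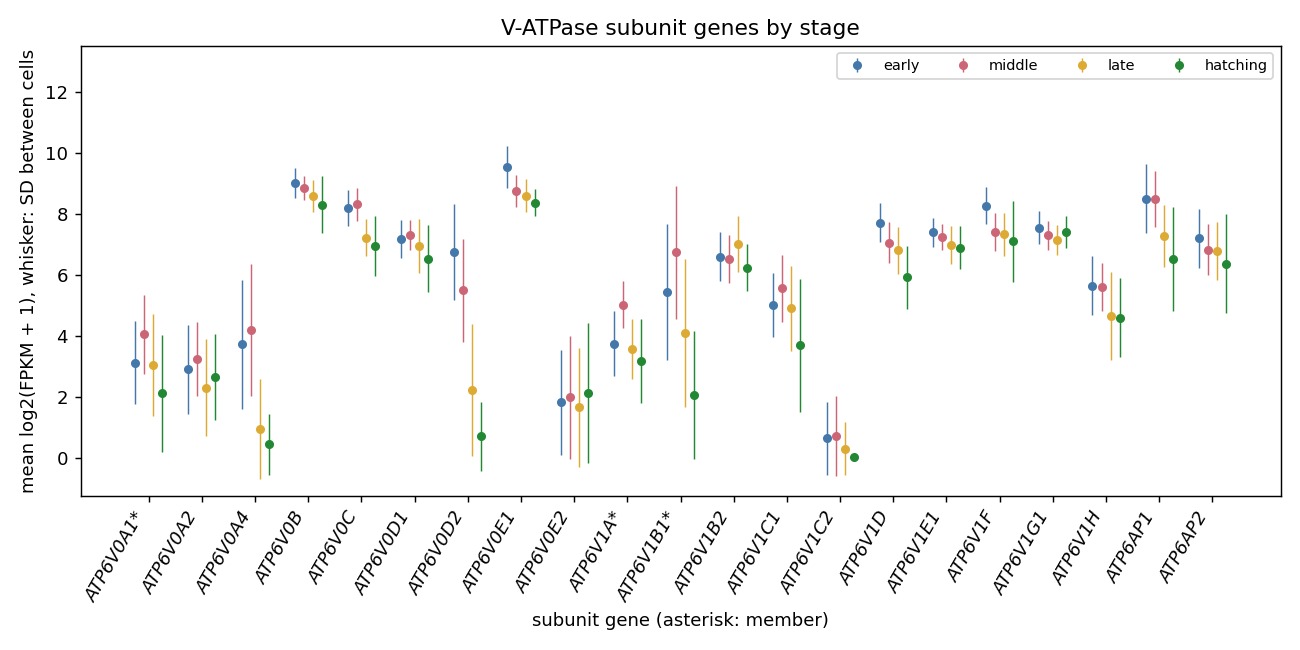
Mean log2(FPKM + 1) of the V-ATPase subunit genes by stage (dots), with the SD between cells as whiskers and an asterisk on the 3 members. ATP6V1A, ATP6V1B1 and ATP6V0A1 peak in middle cells, ATP6V1B2 is highest in late cells and ATP6V0D2 in early cells.

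Enzymes of metabolism were the largest group, with 16 members. PFKL, the liver-type phosphofructokinase that commits sugar to glycolysis, had the smallest spread of any member, 8.03 (SD 0.45) in middle cells: its lowest, median and highest FPKM were 143, 242 and 467 in middle cells, 21.8, 129 and 248 in early cells, 16.1, 115 and 298 in late cells and 0.573, 89 and 336 in hatching cells. Its lowest middle cell lay above the median cell of each other stage, although single early, late and hatching cells reached middle levels. Of 22 glycolysis genes that passed, 8 were highest in middle cells (36.4%), among them HK2 (6.93 against 6.13 in late cells), LDHA (9.43 against 8.68 in early cells) and HK1 (7.21 against 6.56). The list's median value was -0.15, and the glucose transporter gene SLC2A1 was lower in middle (6.67) than in late cells (8.52).

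IDH2, the mitochondrial isocitrate dehydrogenase that makes NADPH, had mean log2 levels of 7.31 (SD 1.27) in middle, 6.14 (SD 1.28) in early, 5.86 (SD 1.56) in late cells and 5.82 (SD 1.48) in hatching cells. NADK, a kinase that makes NADP, had 4.69, 3.18, 3.49 and 3.58 in the same order. Both were detected in nearly all cells, IDH2 in 38 of 39 and NADK in 39 of 39 middle cells. Beside STBD1, glycogen synthase itself (GYS1) fell just short of the 100, with 3.35 in middle and 2.45 in hatching cells, and 4 of 11 glycogen genes were highest in middle cells (36.4%, median value -0.09). DHCR7, which makes cholesterol in the last step of its synthesis, had 4.58 (SD 1.90) in middle, 3.46 (SD 2.22) in early, 3.06 (SD 2.12) in late cells and 3.40 (SD 2.24) in hatching cells. Against the early cells numbered from 29 alone (4.64) its middle level was not higher.

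Cholesterol synthesis was the list with the largest share of its genes highest in middle cells among the 20 lists, 13 of 19 (68.4%, against 31.7% of all genes), with a median value of 0.35. Only DHCR7 was a member. MVD (6.26 in middle, 5.49 in early cells), LSS (4.54 and 3.67), FDFT1 (6.09 and 5.38) and CYP51A1 (4.63 and 4.06) shared its direction. EBP (8.26 and 9.07) and PMVK (3.11 and 4.44) were higher in early cells.

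PPOX, the next-to-last enzyme of heme synthesis, had mean log2 levels of 3.35 in middle and 2.31 in late cells and was found at FPKM 1 in 74.4% of middle cells. Enzymes without a shared pathway included XPNPEP3, a mitochondrial aminopeptidase (4.49 in middle, 2.95 in early cells), PREP, a prolyl endopeptidase (3.49 in middle, 2.0 in late cells), and CA9, a carbonic anhydrase induced by low oxygen (2.48 in middle, 1.20 in hatching cells). CA9 was at FPKM 1 in 22 of 39 middle cells, so its mean rests on part of the stage. NOS3, the endothelial nitric oxide synthase, was rarer still, with 17 of 39 middle, 7 of 44 early, 10 of 52 late and 1 of 26 hatching cells at that level. DNPH1, a hydrolase of nucleoside monophosphates, was the member just inside the threshold with the highest level, 6.37 in middle and 5.47 in early cells. RDH13, CDA, PRKAG1 and CYB5RL complete the group, with values from 0.93 to 0.99.

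Among 5 transporters and uptake receptors, TFRC, the receptor through which cells take up transferrin-bound iron, was next to CTSB the most abundant member in middle cells: its lowest, median and highest FPKM were 44.5, 432 and 922 in middle cells, 37.7, 163 and 582 in early cells, 0.188, 40 and 395 in late cells and 0.594, 18 and 267 in hatching cells. Every early and middle cell reached FPKM 1, yet the late and hatching medians were a small fraction of the middle median, and the mean log2 level was 8.49 (SD 0.92) in middle, 7.36 (SD 0.83) in early, 5.32 (SD 1.59) in late cells and 4.34 (SD 1.71) in hatching cells. Genes of heme synthesis and iron handling were highest in middle cells for 7 of 17 (41.2%), with a median value of -0.16. The ferritin gene FTL was highest in hatching cells (11.04, against 10.21 in middle cells). The glutamate transporter SLC1A1, the monocarboxylate transporter SLC16A13, the magnesium transporter SLC41A2 and the polyamine transporter ATP13A3 had values from 0.93 to 1.14.

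Members of the endoplasmic reticulum, of membrane anchors and of glycan synthesis numbered 7. HYOU1, a chaperone of the endoplasmic reticulum, was found in 39 of 39 middle cells at a mean log2 level of 5.36 (SD 0.84), against 4.35 (SD 1.22) in early cells, and HERPUD1, which acts in the disposal of misfolded proteins, in 28 of 39 at 3.24 (SD 2.11) against 2.12 (SD 2.37). Of 22 genes of the endoplasmic reticulum stress response, 8 were highest in middle cells (36.4%, median value -0.21), and the chaperone gene HSPA5 (8.64 in middle, 8.79 in early cells) and the factor XBP1 (4.59 in middle, 6.06 in hatching cells) were not. PIGO and PIGV, enzymes that add sugars or ethanolamine phosphate to the GPI anchor of surface proteins, had 4.95 and 4.50 in middle cells against 3.75 and 3.49 in the next stage. Among 24 GPI anchor genes 10 were highest in middle cells (41.7%, median value -0.09). The sialyltransferases ST3GAL4 and ST6GALNAC4 had values of 0.91 and 0.90, and CDK5RAP3, of the UFM1 protein-modifying system, had 0.91.

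Of 6 transcription regulators, 2 are best known from the placenta. GCM1, which drives the fusion of trophoblast cells into the syncytiotrophoblast, had the higher level: its lowest, median and highest FPKM were 0.224, 62.8 and 252 in middle cells, 0.0881, 23.8 and 135 in early cells, 0, 6.5 and 215 in late cells and 0, 0.0995 and 9.59 in hatching cells. It was at FPKM 1 in 38 of 39 middle, 36 of 44 early, 29 of 52 late and 4 of 26 hatching cells, and in late cells it was higher in EPI-like (4.10) than PE-like cells (1.73). GATA2, a factor of trophoblast and blood, was found in 18 of 39 middle, 11 of 44 early, 8 of 52 late and 4 of 26 hatching cells.

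Most other placental regulators were highest at another stage: of 12 that passed, 3 were highest in middle cells (25%, median value -0.52), 1 of 10 without the members, and CDX2 (4.67 in middle, 5.41 in early cells), TFAP2C (3.05 and 4.04) and DLX3 (3.14 and 4.37) were higher in early cells. Of the 15 trophectoderm markers that passed, 4 were highest in middle cells (26.7%). The summed FPKM of all 17 trophectoderm markers had medians of 4091 in early, 4655 in middle, 4573 in late and 3821 in hatching cells. Single markers ran in opposite directions under this sum. CLDN4 had mean log2 levels of 9.88 in middle and 1.72 in hatching cells, AQP3 6.25 and 0.28, and KRT19 2.50 and 8.61. CGA was at 0 in all early and middle cells. The part of these markers in the levels of GCM1 and GATA2 was not tested. POGK (a factor derived from a transposase), the zinc-finger genes ZNF23 and ZNF780A, and the coactivator TRIP4 were the remaining regulators, with values from 0.90 to 1.31. ZNF23 had 1 of the 5 smallest differences between middle and late cells, 0.90, with PJA2, R3HDM4, INTS1 and SPECC1L, all from 0.90 to 0.91.

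Immune signalling and immune cell genes numbered 11, TYROBP first. IRF9, which binds DNA in the complex assembled after interferon, had mean log2 levels of 3.86 (SD 2.01) in middle, 2.85 (SD 2.22) in early, 2.08 (SD 2.02) in late cells and 1.51 (SD 2.38) in hatching cells, and IRF1, another interferon regulatory factor, 2.34 (SD 1.95), 1.34 (SD 1.83), 0.51 (SD 1.27) and 0.31 (SD 1.02). IRF9 was not higher in middle cells when only the middle cells numbered from 32 and the HSM cells were taken (value -0.0032). IRF1 was at FPKM 1 in 24 of 39 middle cells and 7 of 52 late cells. Of 9 IRF and STAT genes that passed, 7 were highest in middle cells (77.8%, median value 0.25), 5 of 7 without the members, STAT3 with 5.85 against 5.31 in early cells and IRF7 with 1.20 against 0.60 in late cells. The interferon and antiviral list, which holds several of these factors and interferon-induced genes, had 5 of 14 highest in middle cells (35.7%, median value -0.56), ISG15 being at 0.10 in middle and 0.73 in early cells and B2M at 7.82 in middle and 8.96 in hatching cells.

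Most other macrophage-linked genes were below the filter on mean FPKM. Of the 18 macrophage-linked genes with a row, 8 (AIF1, LAPTM5, C1QA, C1QB, C1QC, TREM2, CYBB and MS4A7) were at 0 in all 39 middle cells. Among those below the filter, CSF1R had mean log2 levels of 1.09 in middle, 0.11 in early and 0.12 in late cells (value 0.97). ITGAM had 0.38 in middle and 0.71 in early cells. Of the 6 that passed the filter, 4 were highest in middle cells, and SPIC, an ETS factor, had 7.14 in middle and 7.0 in early cells. The summed FPKM of the list had a lowest, median and highest value of 68.0, 239 and 464 in middle cells, 30.97, 210.9 and 678.5 in early cells, 0, 34.8 and 411 in late cells and 0, 0.62 and 136 in hatching cells.

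LCP1, an actin-bundling protein of leukocytes, had mean log2 levels of 5.24 (SD 1.77) in middle, 4.04 (SD 1.98) in early, 2.92 (SD 2.36) in late cells and 0.66 (SD 1.51) in hatching cells. LTBR, the lymphotoxin beta receptor of the TNF receptor family, had 5.34 (SD 1.92), 3.97 (SD 2.56), 2.04 (SD 2.26) and 0.97 (SD 1.86). Its early cells were themselves split, with a mean of 2.46 for those numbered up to 28 and 5.94 for those from 29, the second above the middle mean, and its gene overlaps SCNN1A. TNIP1, which restrains NF-kappaB signalling, had 3.17 in middle and 1.84 in late cells, and RHBDF2, which controls the release of membrane-bound cytokines, 3.29 and 2.04. The cytokine gene IL17F, the receptor gene IL17RB, the deaminase gene APOBEC3C (1 of a family of close copies among which reads may be split) and SOCS2, a suppressor of cytokine signalling, had values from 0.92 to 1.03. APOBEC3C, like LTBR, was higher in the early cells numbered from 29 (3.60) than in middle cells (3.05).

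Germline-linked genes numbered 5. Besides FKBP6 they were STK31, a Tudor-domain kinase of the testis (2.35 in middle, 1.28 in early cells), ADAD1, an RNA-binding protein of the testis (1.62 and 0.55), PAGE1, a cancer-testis antigen of a family with close copies (1.89 and 0.97), and GPAT2, a testis acyltransferase linked to piRNAs (1.31 and 0.00). Apart from FKBP6 these rested on a part of the middle cells, 25 for STK31, 16 for PAGE1, 15 for ADAD1 and 12 for GPAT2. PAGE1 had 2.02 in the early cells numbered from 29, above its middle mean, and GPAT2 had 0.40 in the middle cells numbered from 32, near its late mean of 0.38. GPAT2 was at FPKM 1 in 0 of 44 early cells (exact 95% interval 0% to 8.04%), 5 of 52 late and 1 of 26 hatching cells. On the list of piRNA and meiosis genes, 4 of 10 were highest in middle cells (40%, median value -0.33), PIWIL2 with 2.51 against 1.82 in hatching cells, whereas GTSF1 had 6.92 in middle and 7.42 in early cells.

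Surface, adhesion and matrix genes numbered 8. LAD1, an anchoring-filament protein of epithelia, had mean log2 levels of 5.30 (SD 1.35) in middle, 4.10 (SD 2.01) in early, 3.14 (SD 2.47) in late cells and 0.89 (SD 1.37) in hatching cells, and PERP, a desmosome protein, 5.63 (SD 0.64), 4.64 (SD 1.00), 4.66 (SD 0.93) and 4.57 (SD 1.26). LAD1 was at low level in most hatching cells (7 of 26 at FPKM 1), whereas PERP was in 25 of 26. EPHA4, an ephrin receptor, had 3.70 in middle and 2.18 in early cells, and the guidance ligand SEMA4B 5.39 and 4.49. FZD6, a Wnt receptor, PI16, a peptidase inhibitor, and CDHR1, a cadherin-related protein, had values from 0.91 to 1.18. ADAMTSL4, a matrix protein, was at FPKM 1 in 25 of 39 middle cells, and its hatching PE-like mean (2.87) exceeded its middle mean (2.22).

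Members of DNA repair, chromatin and RNA processing numbered 7. TONSL, which acts at broken replication forks, had 5.19 (SD 1.47) in middle and 3.98 (SD 1.17) in early cells, with late and hatching means of 3.96 and 3.93, so that the middle cells stood above 3 nearly equal stages. FAM35A, a subunit of the shieldin repair complex, had 3.84 in middle and 2.56 in early cells, and INTS1, of the Integrator complex, 4.79 in middle and 3.88 in late cells. PAXIP1, the microRNA-processing gene DGCR8, the tRNA methyltransferase gene TRMT61A and the RNA helicase gene SKIV2L had values from 0.91 to 1.05. The cytoskeleton, kinase and ubiquitin ligase group had 13 members, among them PSD3, an exchange factor of ARF GTPases (2.91 in middle, 1.37 in early cells), the dynein light chain DNAL4 (3.43 in middle, 2.18 in hatching cells), the kinesin KIF19, CDK5RAP2 of the centrosome, RTKN, PLCD4, LNX2, PIK3C2B, PPP2R5A and ASB8.

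The remaining 13 members fitted none of these groups. MFN2, which fuses mitochondria, reached FPKM 1 in all cells of all 4 stages, with 6.73 (SD 0.73) in middle, 5.78 (SD 0.62) in early, 5.49 (SD 1.08) in late cells and 4.77 (SD 1.15) in hatching cells. DDIT4, a stress-induced inhibitor of mTORC1, had 3.06 (SD 2.67) in middle and 2.12 (SD 2.45) in early cells, and was at FPKM 1 in 22 of 39 middle cells. Of 24 immediate early and stress genes that passed, 6 were highest in middle cells (25%, median value -0.34). HBZ, the embryonic zeta globin and 1 of the alpha globin copies, was found in 14 of 39 middle cells, with a highest FPKM of 345, and in 1 of 26 hatching cells. C10orf88, C2CD5, C6orf136, C5orf22, ANKRD40, MVP (the major vault protein), WDR53, C6orf211 and R3HDM4, with NDRG2 above, complete the 100.

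The lists that define cell types and pluripotency held few or no members. None of 14 primitive endoderm markers and 2 of 12 epiblast markers (16.7%) were highest in middle cells, and no member was on either list. Of 20 naive pluripotency genes 7 (35.0%), and of 16 primed pluripotency genes 1 (6.25%), were highest there. Oxidative phosphorylation genes were so for 5 of 27 (18.5%) and mitotic and replication genes for 4 of 25 (16.0%). Cell junction genes had 7 of 19 (36.8%).

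Title numbers split the middle cells, a difference that did not enter the rule. Of the 100 members, 30 were higher by at least 1 log2 unit in the 25 cells numbered up to 29 than in the 12 numbered from 32 (8.63% of all genes), 4 were lower by as much (3.93%), and 66 lay within 1. These counts moved with the scale: 15 were higher and none lower with the log2 of the mean FPKM, and 3 and none at a pseudocount of 10. The median difference was 0.57 for members and 0.12 for all genes, and 76 members against 59.2% of all genes were higher in the low numbers. The low-numbered cells are the larger range and weigh more in the mean that chose the members. ATP6V1B1 (7.74 and 4.86), WDR53 (3.97 and 1.73), ADAMTSL4 (2.88 and 0.71), C6orf211 (4.83 and 2.73) and NOS3 (2.46 and 0.63) had the largest differences in mean log2 level. LCP1 (4.77 and 6.07), DDIT4 (2.45 and 3.83), PI16 (2.63 and 3.96) and FZD6 (1.34 and 2.65) went the other way by at least 1, and ST3GAL4 (5.44 and 6.25) by less. By role, 5 of the 16 metabolic enzymes and 6 of the 13 members outside the groups were higher by at least 1 in the low numbers. So were 5 of the 13 cytoskeleton, kinase and ubiquitin ligase genes, 4 of the 11 immune genes and 3 of the 5 germline-linked genes. They also included 2 of 9 lysosome and traffic, 2 of 8 surface, 2 of 7 repair and RNA, and 1 of 7 endoplasmic reticulum genes. None of the 6 transcription regulators or 5 transporters were among them. These groups are small and were drawn after the values were seen.

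Most members were nonetheless above every other stage in both ranges. All 100 were so in the low-numbered cells (35.4% of all genes), with a median value of 1.23. In the high-numbered cells 92 were so (28.3%), with 0.71, and in the 2 HSM cells 90 (38.9%), while 17.4% of all genes were so in both number ranges. These cells entered the mean that chose the members. The 8 exceptions in the high-numbered cells were ATP6V1B1, ADAMTSL4, NOS3, WDR53, C6orf211, ADAD1, C5orf22 and ATG7. PFKL (8.01 and 8.04), CTSB (10.01 and 10.02) and RTKN (6.28 and 6.23) hardly differed between the ranges. Low-numbered cells had a median of 11.5 M recovered reads, 7269 genes at FPKM 1 and a summed trophectoderm marker FPKM of 6122, and high-numbered cells 13.1 M, 6668 and 3142, and the part of these differences was not tested. The mean over the 100 members was 3.83 to 4.69 in low-numbered and 3.45 to 3.95 in high-numbered cells.

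**Figure D3:**
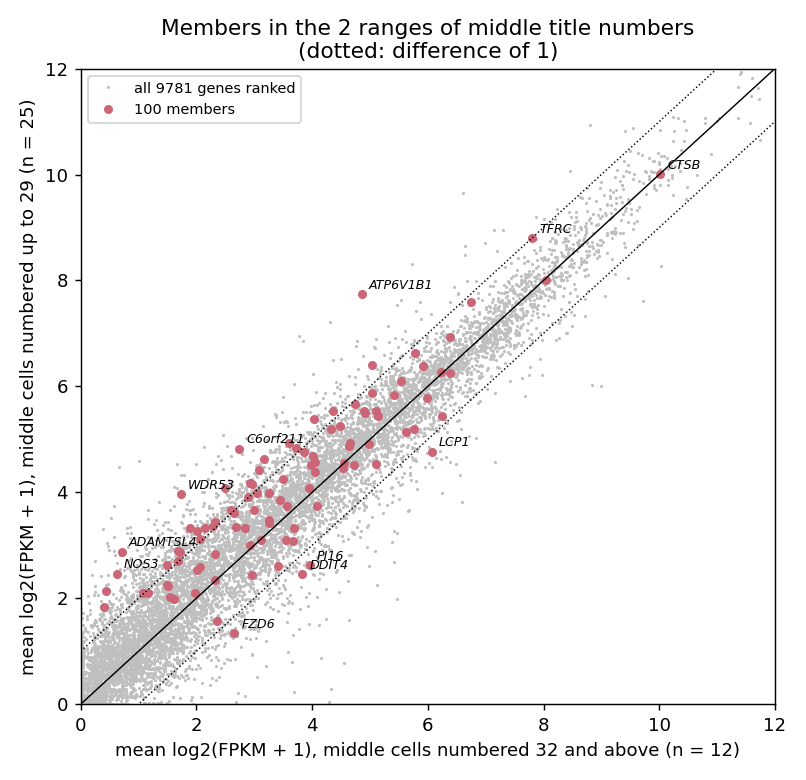
Mean log2(FPKM + 1) of each gene in the 25 middle cells numbered up to 29 (y axis) against the 12 numbered from 32 (x axis), all 9781 ranked genes in grey and the 100 members in colour, with dotted lines at a difference of 1. The members lie mostly above the diagonal, 30 beyond the upper dotted line and 4 beyond the lower.

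The late and hatching means pool EPI-like and PE-like cells, so each class was also compared alone. Middle cells were above late EPI-like cells for 99 members, late PE-like cells for 99, hatching EPI-like cells for 100 and hatching PE-like cells for 95. They were above early cells and all 4 classes for 94 members (19.2% of all genes). The rule set the middle mean above the pooled late and hatching means that these classes make up, so nothing is read from the counts. In late cells 18 members were higher in PE-like and 9 in EPI-like cells by at least 1 log2 unit (8.58% and 9.03% of all genes), and in hatching cells 16 and 26 (14.2% and 33.7%). CTSB had 9.20 in late PE-like and 6.03 in late EPI-like cells, TFRC 6.30 and 4.09, and IRF9 2.99 and 0.92. ATP6V1B1, with 2.80 and 5.70, was higher in EPI-like cells.

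The members not highest in middle cells once the classes were split were ADAMTSL4, NDRG2, CDA, SLC41A2, ASB8 and CDHR1. SLC41A2 had 7.30 in late PE-like cells against 6.31 in middle cells, and CDA 8.92 in hatching PE-like cells against 5.25. NDRG2 had 6.14 in hatching PE-like cells and 5.99 in middle cells. These are levels of 7 hatching PE-like cells and 29 late PE-like cells, and the classes rest on clusters named from markers, not on a sort. The 7 hatching PE-like cells had from 4974 to 6117 genes at FPKM 1, and the part of this was not tested.

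**Figure D4:**
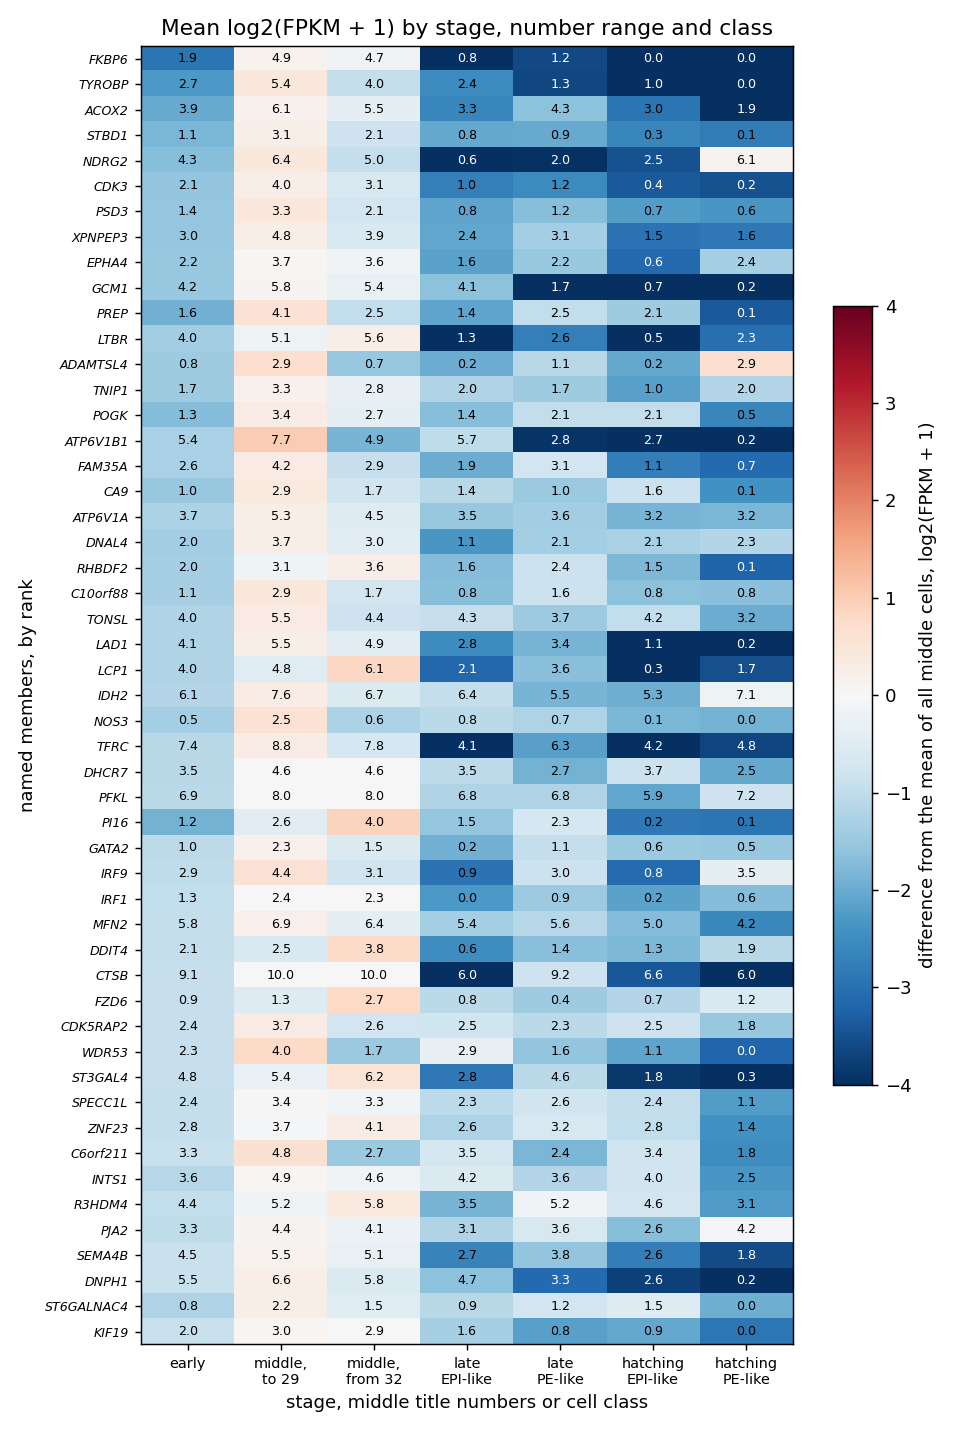
Mean log2(FPKM + 1) of the named members (rows, by rank) in early cells, the 2 middle number ranges and the EPI-like and PE-like classes of late and hatching cells, printed in each field and coloured by the difference from the mean of all middle cells. The 2 middle columns are pale, most others blue, and ADAMTSL4 and NDRG2 are red or pale in hatching PE-like cells.

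Across the 39 middle cells the members were weakly correlated. Over the 4950 pairs the median Pearson correlation was 0.03, against 0.01 over all pairs of ranked genes, and 28 pairs (0.566%) reached 0.5, against 0.263% of all pairs. The highest were NDRG2 with IDH2 (r = 0.65), TYROBP with CDK5RAP2 (0.65) and TONSL with SEMA4B (0.64), which were 0.32, 0.45 and 0.45 within the 25 low-numbered cells. IDH2 and SEMA4B are neighbouring genes in the RefSeq table and the single such pair among the members. The mean over the members had r = 0.30 with the trophectoderm markers, 0.24 with the epiblast markers and 0.50 with the number of genes at FPKM 1 over the 39 cells, and -0.10, 0.34 and -0.09 within the 25 low-numbered cells. With the oocyte transcripts it had 0.32 and 0.45, with the recovered reads -0.28 and 0.11, and with the primitive endoderm markers -0.11 and -0.06. These correlations are descriptions over cells that may share embryos and differ in depth, and carry no test.

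The threshold of the selection falls among closely spaced genes. Just inside it were DNPH1, ST6GALNAC4 and KIF19 and just outside GYS1, SCFD2 and UHMK1, all with values that round to 0.90. ST6GALNAC4 had 2.01 in middle and 1.11 in hatching cells and was at FPKM 1 in 15 of 39 middle cells. UHMK1, a kinase outside the threshold, had 3.72 in middle and 2.82 in early cells and was at FPKM 1 in 37 of 39. The vesicle traffic gene SCFD2 had 2.29 and 1.39. Of the 100 members, 96 matched the RefSeq table by symbol, and 19 of these overlap another coding gene there, with which reads may be shared since no strand of the counting is given. Among the named members these are CDK3, XPNPEP3 (DNAJB7), LTBR, ADAMTSL4, POGK (TADA1), CA9 (ARHGEF39), MFN2 (PLOD1), FZD6 (CTHRC1) and SPECC1L, and outside the naming rule HERPUD1 (SLC12A3), RILP (SCARF1), ATG7 (HRH1, VGLL4), RTKN (INO80B), IL17RB (ACTR8), CDK5RAP3 (PRR15L), MON1B (SYCE1L), CDHR1 (RGR), PAXIP1 (HTR5A) and ATP6V0A1.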

How the data were processed

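The authors deposited 1 table of FPKM for 16049 gene symbols in 161 cells, and every column matched a cell's title. Per the labels' protocols, each picked cell's PCR-amplified cDNA was read from both ends (150 bases each). TopHat2 2.1.0, FastQC, HTSeq and DESeq2 stand in the submitters' processing notes without a stated role. For the genome build and annotation, nothing is given in the sources used here.

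Low FPKM values of a gene are multiples of what 1 read is worth. Whole reads were recovered within 0.001 read for 13817 of 13857 genes, and gave 2.90 to 18.3 M per cell (median 10.9 M), a lower bound on depth since these genes held 78.9% to 91.6% of a cell's summed FPKM. Many step sizes were tried per gene, and a gene with values in few cells can fit by chance. The number of genes recovered is thus no check of the read counts. PCR reads carry no molecular identifiers.

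Levels are means over cells of log2(FPKM + 1) with the SD between cells. A fold on this scale understates the difference of low genes. Shares of cells at FPKM 1 have exact Clopper-Pearson 95% intervals, which cover the counting error of cells only. Each stage is 1 sample, so no test was made. The ranking script was tested on simulated data, with each gene drawn independently from the early cells and some genes raised. These data held no differences between embryos, so this checks the calculation and not the members.

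The members and all lists were chosen with earlier results of these data known. Genes were named by rule: the 25 highest members, 3 on each side of the threshold, members on a list, the 5 highest in middle cells, the 5 most apart in each direction between title numbers, the 5 largest and 5 smallest differences from late cells, and the 3 most correlated pairs. The role groups, 7 gene families (V-ATPase, GPI anchor, glycogen, endoplasmic reticulum stress, heme and iron, IRF and STAT, placental factors) and other named members were chosen after their values were seen. Of the 20 lists, those on oocyte transcripts (1 of 6 tested genes highest in middle cells), growth targets (5 of 16), p53 targets (5 of 22), amino acid transporters (3 of 17) and chromatin regulators (4 of 19) held no member.

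Late and hatching cells were classed by Ward clustering of 10 principal components from the 1000 most variable genes, leaving out list genes and members, and named from the marker lists. Middle cells were not classed. Doublets were not called, since cells were picked by hand. The work used scikit-learn 1.9.0, scipy 1.17.1, matplotlib 3.10.9, numpy 2.4.6 and pandas 2.3.3 under Python 3.11.15. The selection was repeated under 15 alternatives, of which leaving out the 5 late cells with the prefix HSL was chosen after seeing the data.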

Additional observations from a re-analysis of the deposited data

How the results depend on the processing

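Which genes make up the 100 depended on the processing. The same ranking took 63 of the members again at a pseudocount of 0.1, 49 at a pseudocount of 10, 28 with the median over cells and 53 with the log2 of the mean FPKM. It took 66 with the middle cells numbered up to 29 and HSM alone, 31 with those numbered from 32 and HSM alone, and 55 with the early cells numbered from 29 alone. In each of these the cause was not tested. Of the 100 members, 85 kept their highest mean in middle cells under every alternative that kept them in the ranking, and ACOX2, CDK3, FKBP6, STBD1 and TYROBP were taken again under all of them. Of 759 values of single genes, 748 moved by less than the gene's SD between middle cells. The 748 leave out 6 values that fell from at least 1 to below 0. Only 22 of the 100 members had a value above that SD, so the count does not measure stability. In all, 8 values were below 0. With the classes split, ADAMTSL4 went to -0.65 and NDRG2 to -0.14. With middle cells numbered from 32 and HSM alone, ATP6V1B1 went to -0.50, WDR53 to -0.45, C6orf211 to -0.17 and IRF9 to -0.0032. With early cells from 29 alone, LTBR went to -0.60 and DHCR7 to -0.0602. Members apart by at least 1 between the title number ranges fell from 34 to 15 with the log2 of the mean FPKM and to 3 at a pseudocount of 10, and those higher in the low numbers from 30 to 15 and 3. No paired analysis was possible because cells carry no replicate number from their labels and no test was made. Without embryo labels, differences between stages and between embryos cannot be told apart, and levels below an FPKM of about 1 rest on few reads.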
